A study of Mus musculus with 2 samples.

Results

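The genes of the major histocompatibility complex (MHC) and of its antigen loading machinery were followed at single-cell resolution in sorted mouse natural killer (NK) cells and in the few other cells caught with them. Members were taken by symbol: every gene whose symbol starts with H2-, together with B2m, Tap1, Tap2, Tapbp, Tapbpl, Erap1, Nlrc5, Ciita, Cd74 and Cd1d1. This gave 44 of the 31053 listed genes. They comprised 2 classical class I genes, 23 non-classical class I genes, 7 class I loading genes and 11 class II genes. The last member, H2-Ke6, encodes a steroid dehydrogenase, lies within the complex and presents no antigen. On the reference annotation 37 of the 44 lie on chromosome 17.

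The study pooled splenic NK cells, sorted as positive for CD27 and CD11b, from 2 C57BL/6 mice per genotype and made 1 droplet library for each pool. The control was EP3F/F, in which both copies of Ptger3, the gene of the prostaglandin receptor EP3, carry flanking loxP sites. The knockout was NKp46CreEP3F/F, which carries the same floxed gene and Cre under the NK receptor gene Ncr1, so deletion is limited to cells that use this promoter. Both groups share the floxed allele. No age is given in the labels used here. With 1 library per genotype there is no replicate, hence no test. All intervals given here are 95% intervals for counting error only, and differences between mice, sorts or preparations cannot be told apart from genotype.

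Class I molecules hold peptides cut in the cytosol, pumped into the endoplasmic reticulum by the TAP transporter and fitted with the help of tapasin, and they stay at the surface only with the light chain beta-2 microglobulin. They matter to NK cells from both sides, since NK cells test other cells for class I through inhibitory receptors and carry class I themselves. Class II molecules present peptides from the endocytic route and are typical of dendritic cells, macrophages and B cells, in which the invariant chain Cd74 fills the groove until the DM proteins exchange it for peptide.

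The control library held 69853026 unique molecule counts (UMIs) in 11785 barcodes and the knockout library 42795121 in 10615, and 33 barcode sequences occurred in both. After filtering, 10928 control and 10023 knockout cells were left, with medians of 5816.5 and 3832 UMIs. NK cells were gated on summed NK receptor transcripts, T cells on Cd3e, macrophages on C1qa and dendritic cells on Itgax. The NK gate took 10558 control and 9282 knockout cells. The T gate took 16 and 41 cells, the macrophage gate 34 and 129, and the Itgax gate 27 and 12. No gate took 293 control and 559 knockout cells. Ptger3 was seen 16 times in control NK cells, or 0.238 counts per 1000000 UMIs (CPM). It was seen 0 times in knockout NK cells, where 3 counts would be 0.0763 CPM.

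The gates were checked against marker lists. All 11 T cell markers were detected in T-gated cells of both libraries, and all 10 macrophage markers in macrophage-gated cells. The dendritic name held only in part: Itgax-gated cells showed 7 of 11 dendritic markers in the control and 3 of 11 in the knockout. Clec9a, Siglech, Ccr9 and Clec10a were at 0 in both. The summed neutrophil and monocyte markers stood at 4385 CPM in the control Itgax gate, of which Lyz2 gave 3437 CPM, against 161 CPM in the knockout one. The T cell markers summed to 112 CPM in the control Itgax gate (3 of 11 detected) and 415 CPM in the knockout one (5 of 11), and the macrophage markers to 225 and 23.1 CPM. These cells are therefore called Itgax-gated below, and Itgax itself was also found in NK cells, at 190 and 99.3 CPM. In NK-gated cells Cd27 stood at 136 CPM in the control and 160 CPM in the knockout, and Itgam, the gene of CD11b, at 153 and 93.4 CPM.

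Of the 44 members, 22 reached a mean of 10 CPM over both libraries in NK cells and are called measured. Another 12 had NK cell UMIs below that level. The remaining 10, all genes of the H2-M group, were at 0 in every deposited barcode of both libraries. Reads of these libraries come from transcript ends, so levels are compared between cells and libraries for each gene, and no order between genes is read from them.

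To show the DNA just upstream of members on which the results turn, 250 bases before the RefSeq start site are printed 5′ to 3′ on the gene's strand, from RefSeq on GRCm38.p6. Capitals mark matches, on either strand, to the interferon-stimulated response element (ISRE) spelled GAAA, any 2 bases, GAAA, to the kappa B (kB) spelling GGGGA directly followed by TTCCCC, and to CCAAT. The window of B2m, the light chain, is chr2:122147437-122147686 on the plus strand. Those of H2-K1 and H2-T23 are chr17:34000348-34000597 and chr17:36032702-36032951 on the minus strand. H2-D1 has chr17:35262844-35263093 on the plus strand, and the class II alpha chain gene H2-Aa has chr17:34287824-34288073 on the minus strand.
B2m: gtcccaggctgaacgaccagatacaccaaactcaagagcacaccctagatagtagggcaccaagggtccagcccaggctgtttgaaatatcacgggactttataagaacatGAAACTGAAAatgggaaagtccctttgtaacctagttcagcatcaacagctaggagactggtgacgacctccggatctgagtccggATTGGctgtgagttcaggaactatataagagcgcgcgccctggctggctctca
H2-K1: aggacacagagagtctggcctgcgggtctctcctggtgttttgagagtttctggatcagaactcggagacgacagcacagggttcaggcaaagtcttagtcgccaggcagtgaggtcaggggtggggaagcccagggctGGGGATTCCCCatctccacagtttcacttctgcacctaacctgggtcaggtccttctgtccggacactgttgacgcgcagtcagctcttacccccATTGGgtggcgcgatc
H2-D1: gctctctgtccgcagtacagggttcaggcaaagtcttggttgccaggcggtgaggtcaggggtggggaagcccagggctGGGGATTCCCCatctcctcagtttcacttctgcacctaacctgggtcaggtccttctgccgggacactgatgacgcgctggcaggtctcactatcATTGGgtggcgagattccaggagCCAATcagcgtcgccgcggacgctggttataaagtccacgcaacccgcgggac
H2-T23: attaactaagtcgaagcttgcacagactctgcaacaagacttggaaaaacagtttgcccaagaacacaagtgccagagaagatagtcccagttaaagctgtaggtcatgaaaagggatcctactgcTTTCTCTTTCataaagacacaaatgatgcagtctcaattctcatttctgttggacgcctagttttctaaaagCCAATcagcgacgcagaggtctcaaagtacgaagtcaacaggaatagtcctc
H2-Aa: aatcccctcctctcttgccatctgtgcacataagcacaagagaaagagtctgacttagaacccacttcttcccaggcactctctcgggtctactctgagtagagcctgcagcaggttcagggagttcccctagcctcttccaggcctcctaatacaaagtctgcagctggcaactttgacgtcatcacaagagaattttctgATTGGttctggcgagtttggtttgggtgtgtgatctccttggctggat

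The kB spelling occurred in 10 of 32851 RefSeq windows of this length (0.0304%). H2-K1, H2-D1 and H2-Q6 held 3 of the 10, at positions -111, -171 and -173 from the start site. The ISRE spelling occurred in 978 windows (2.98%), among them those of B2m, H2-T23 and H2-T22, at positions -139, -124 and -191. CCAAT was common, in 33.8% of all windows. It was found in 7 of the 8 class II windows and 17 of the 20 non-classical ones. A window was given for 35 of the 44 members. The matches describe letters and are not evidence of binding. Only these exact spellings were searched, so a window without a match may still hold a variant of an element.

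Classical class I transcripts were abundant in NK cells and the ratios of the 2 genes between the libraries had opposite signs. H2-K1, which encodes the heavy chain H2-K, stood at 2805 CPM in the control and 2371 CPM in the knockout. H2-D1, which encodes H2-D, stood at 2422 CPM and 2968 CPM. The knockout over control ratio was -0.24 on the log2 scale for H2-K1 (interval -0.25 to -0.23) and 0.29 for H2-D1 (0.28 to 0.30). Their sum was nearly level, at 5227 and 5339 CPM, a log2 ratio of 0.03. The light chain gene B2m stood at 2154 and 2040 CPM, a log2 ratio of -0.08.

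The share of H2-K1 within the pair does not involve library scaling. H2-K1 gave 53.7% of the H2-K1 and H2-D1 UMIs in control NK cells (exact binomial interval 53.5 to 53.8) and 44.4% in knockout NK cells (44.2 to 44.6). In T-gated cells the share was 63.0% in the control (58.2 to 67.6) and 52.7% in the knockout (49.4 to 56.0). The knockout share was thus lower in both cell types, by more than counting error. In macrophage-gated cells the shares were 46.4% (38.2 to 54.6) and 43.9% (40.6 to 47.2). In Itgax-gated cells they were 44.0% (35.5 to 52.9) and 41.3% (32.6 to 50.4), and intervals overlapped in both of these gates. The last 500 bases of H2-K1 transcripts shared 0.151% of their 90-base stretches with other genes and those of H2-D1 shared 0. Adjusting each ratio for the median of the 300 measured genes nearest in exon length gave -0.35 for H2-K1 and 0.15 for H2-D1.

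**Figure D1:**
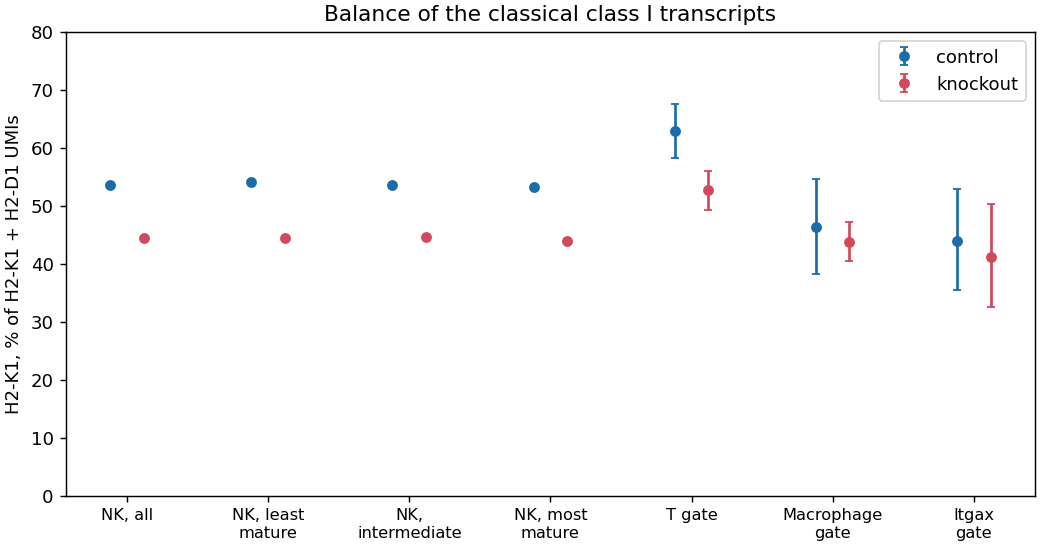
Share of H2-K1 among the summed H2-K1 and H2-D1 UMIs (y axis, percent) in NK cells, in their maturation tertiles and in the other gates, with exact 95% binomial intervals as bars (smaller than the point in NK cells). The control library (blue) stands at 53.7% and the knockout library (red) at 44.4% in all NK cells, and the 3 tertiles repeat this gap.

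A size of 0.32 in the log2 ratio was used to call a gene higher or lower, as a description. Of the 22 measured members, 6 were higher in knockout NK cells, where 14.8% of the 7341 measured genes were. Lower were 3 members, where 29.3% of measured genes were. The median ratio of the measured members was 0.09, against -0.06 for all measured genes. By class, 5 of 5 measured class II genes were higher, and 1 of 7 non-classical genes was higher and 1 lower. Of the loading genes 2 of 7 were lower, and neither classical gene was called. H2-Ab1, at 8.35 CPM in the control and 14.4 CPM in the knockout, passed the minimum only through the knockout. Of the class II genes under the minimum, H2-Ob had -0.54. The others ran from 0.24 (H2-Oa) to 1.01 (H2-DMb2, from 17 and 20 UMIs). The 5 thus do not stand for the whole class.

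**Figure D2:**
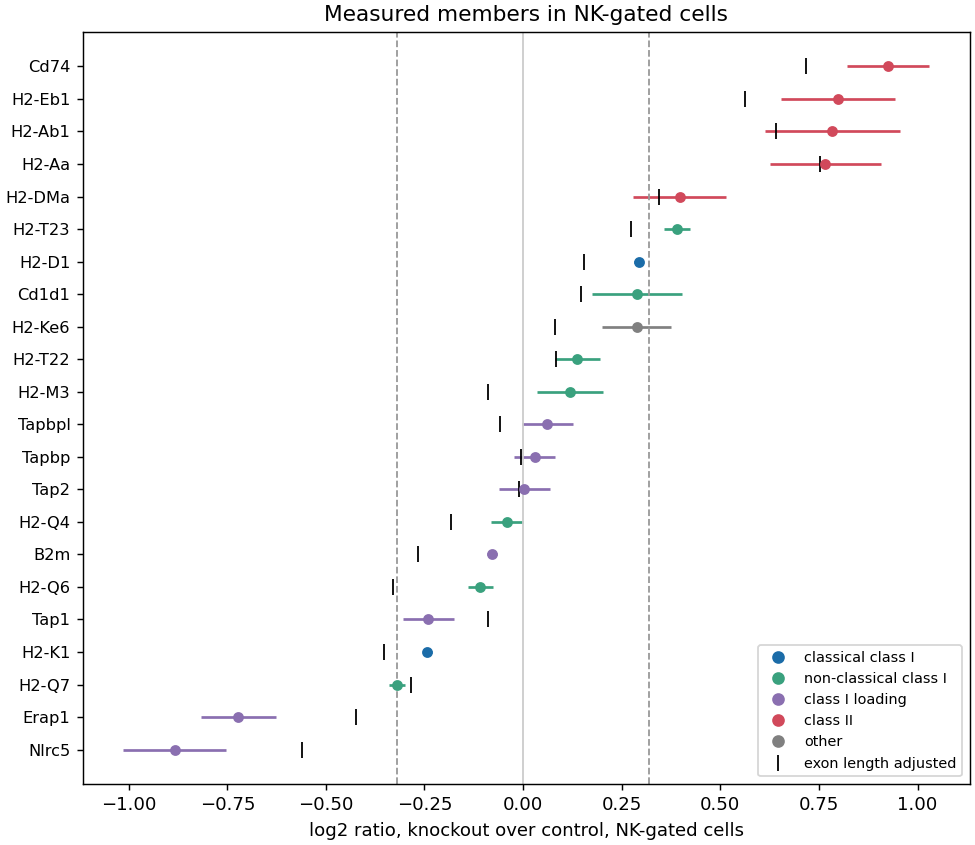
Knockout over control log2 ratio (x axis) of the 22 measured members in NK cells, ordered by size and coloured by class, with counting intervals as bars, dashed lines at 0.32 in either direction and a black tick for the ratio adjusted for exon length. The class II genes lie at the top, from 0.40 for H2-DMa to 0.93 for Cd74, and Erap1 and Nlrc5 at the bottom, at -0.72 and -0.88.

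Among the non-classical class I genes, H2-T23 was the one called higher. It encodes Qa-1, which carries a leader peptide of other class I chains to the receptor pair CD94 and NKG2A. H2-T23 stood at 249 CPM in the control and 326 CPM in the knockout, a log2 ratio of 0.39 (0.36 to 0.42). At a fixed 2000 UMIs per cell, 39.0% of control and 47.6% of knockout NK cells held an H2-T23 UMI (74.5% and 70.3% unthinned). The length-adjusted ratio was 0.27, below the size used, and 13.4% of the gene's 90-base end stretches also occur in other genes, so its level is uncertain.

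H2-Q6 and H2-Q7 encode Qa-2 chains. H2-Q7 stood at 903 and 723 CPM, a log2 ratio of -0.32 (-0.34 to -0.30), just past the size used, and was under it when adjusted for length (-0.28). H2-Q6 stood at 352 and 327 CPM, a log2 ratio of -0.11. Of its end stretches 26.9% are shared, with H2-Q7 among others, so counts of the pair may be split unevenly. H2-Q4, which encodes the Qb-1 chain, stood at 208 and 202 CPM.

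H2-T22, whose product is a ligand of some gamma delta T cell receptors, stood at 95.5 and 105 CPM, with 26.4% of its end stretches shared. H2-M3, which presents N-formylated peptides, stood at 44.4 and 48.2 CPM. Cd1d1, which presents lipids to NKT cells, stood at 22.3 and 27.3 CPM. The log2 ratios of these genes were 0.14, 0.12 and 0.29, so none reached the size used. H2-Ke6 stood at 38.1 and 46.5 CPM, a log2 ratio of 0.29, with 45.6% of its end stretches shared.

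Among the loading genes, Nlrc5 and Erap1 were lower in the knockout. NLRC5 is the transactivator of class I genes, and Nlrc5 stood at 30.0 and 16.3 CPM, a log2 ratio of -0.88 (-1.01 to -0.75). ERAP1 trims peptides in the endoplasmic reticulum, and Erap1 stood at 51.2 and 31.0 CPM, a log2 ratio of -0.72 (-0.82 to -0.63). Both have long transcripts, and long genes as a group were lower in the knockout library: the median of the 300 genes nearest in length was -0.32 for Nlrc5 and -0.30 for Erap1. Adjusted for it, the ratios were -0.56 and -0.42.

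Neither TAP transporter gene reached the size used. Tap1 was at 85.3 and 72.2 CPM, a log2 ratio of -0.24, and Tap2 at 79.8 and 79.9 CPM, a log2 ratio of 0.00. Tapbp, the tapasin gene, was at 118 and 120 CPM. Tapbpl, which encodes the related peptide editor TAPBPR, was at 74.9 and 78.2 CPM. Summed over the 7 loading genes the log2 ratio was -0.09, and over the non-classical genes it was -0.10.

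The wider pathway was followed in a list of 30 genes of proteasome, folding, class II transcription, interferon signalling and peptide proteolysis, of which 26 were measured in NK cells. Of these 1 was higher in the knockout, where 14.8% of all measured genes were, and 9 were lower, where 29.3% of them were. The list's median log2 ratio was -0.26. Rfxank, a subunit of the RFX factor that binds class I and class II promoters, was the higher one, at 10.8 and 15.3 CPM. Creb1, which binds a neighbouring promoter element, had a ratio of -0.81, at 115 and 65.9 CPM, and of -0.33 when adjusted for length. Irf9, a subunit of the factor that carries the type I interferon signal to DNA, had a ratio of -0.77. Pdia3, a disulfide isomerase of the peptide loading complex, had -0.74, and Canx, the class I chaperone calnexin, had -0.63. Nfya, a subunit of the CCAAT-binding factor, had -0.73. The immunoproteasome genes Psmb8, Psmb9 and Psmb10 had 0.01, 0.18 and 0.00. The proteasome genes were chosen for naming after their values were seen. Adjusted for length, the list's median was -0.21, Pdia3 had -0.82, Irf9 -0.61, Canx -0.56 and Nfya -0.44.

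Class II transcripts were sparse in NK cells and higher in the knockout library. Cd74, the invariant chain, stood at 21.3 and 40.5 CPM, a log2 ratio of 0.93 (0.82 to 1.03). The alpha chain gene H2-Aa stood at 12.3 and 20.8 CPM, a ratio of 0.77 (0.62 to 0.91). The beta chain genes H2-Ab1 and H2-Eb1 stood at 8.35 and 14.4 CPM and at 11.6 and 20.1 CPM, ratios of 0.78 and 0.80. H2-DMa, a subunit of the peptide exchange factor DM, stood at 19.9 and 26.2 CPM, a ratio of 0.40 (0.28 to 0.52). The summed class II log2 ratio was 0.66.

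Macrophage markers were also higher in knockout NK-gated barcodes, while the B cell and dendritic lists were not. The 10 macrophage markers summed to 8.99 CPM in the control and 19.4 CPM in the knockout, with 9 of 10 detected and C1qa at 0 by construction of the gate. Lyz2 stood at 5.12 and 20.1 CPM. The B cell list summed to 114 and 89.3 CPM, of which Ighm gave 112 and 85.1 CPM. The dendritic list, led by Itgax, summed to 236 and 137 CPM. The part of free RNA or mixed barcodes in the class II ratio was not tested. In barcodes with at least 4 NK marker UMIs and 0 UMIs over Itgax, Cd79a, Lyz2, C1qb, Flt3 and Siglech, the class II sum had a log2 ratio of 0.24. H2-Aa then had 0.42, Cd74 0.27, and H2-Ab1 and H2-Eb1 0.02 each. In that gate 2 members were called higher, in place of 6, and H2-DMa still had 0.43 and H2-T23 0.37. Asking for 0 Itgax UMIs also left out NK cells, in which Itgax stood at 190 (control) and 99.3 CPM (knockout). Barcodes with an Itgax UMI, 0 of C1qa and Cd3e and any number of NK marker UMIs numbered 6164 (control) and 2642 (knockout). The libraries thus lost unequal numbers of cells, and the part of this loss in the lower class II ratio was not tested.

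The 4 chain genes H2-Aa, H2-Ab1, H2-Eb1 and Cd74 were concentrated in few barcodes. Of control NK-gated barcodes 94.7% held 0 chain UMIs, and of knockout ones 92.8%. The 118 control barcodes with 5 or more chain UMIs (1.12%) held 84.2% of all chain UMIs, and the 115 such knockout barcodes (1.24%) held 81.3%. In these barcodes 16 markers of other lineages summed to 259 CPM in the control and 313 CPM in the knockout. In barcodes without chain UMIs they summed to 8.44 and 29.7 CPM. Barcodes with 0 UMIs of these 16 markers were 96.2% of control and 93.6% of knockout NK-gated barcodes. They held 49.3% and 50.6% of all chain UMIs. At 2000 UMIs per cell, 1.65% of control and 2.47% of knockout NK cells held a Cd74 UMI (3.20% and 4.07% unthinned). T-gated cells, in which little Cd74 is known, serve as a background. Unthinned, 0 of 16 control T-gated cells (median 6482 UMIs) held a Cd74 UMI, which allows a share of up to 20.6% by the exact binomial interval. In the knockout 3 of 41 cells (median 5317 UMIs) did, or 7.32% (1.54 to 19.9). Of the 19 Cd74 UMIs in knockout T-gated cells, 13 lay in the highest cell. The shares of NK cells, at medians of 5836 and 3845.5 UMIs, lay inside these intervals. With so few T-gated cells, shares of this size could not have stood above them, so the comparison decides nothing. The NK cell shares are not read as expression.

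Most H2-DMa UMIs lay outside the barcodes with chain UMIs, though somewhat fewer than for a gene found in nearly every cell. Of its UMIs in NK-gated cells, 89.0% in the control and 87.2% in the knockout lay in barcodes without a chain UMI. For H2-K1, present in nearly every cell, the same shares were 94.3% and 92.0%. In chain-free barcodes H2-DMa stood at 18.8 and 24.9 CPM, a log2 ratio of 0.40 (0.28 to 0.53). Per 100 chain UMIs, H2-DMa had 37.2 UMIs in control and 27.3 in knockout NK cells. The same figure was 4.40 and 1.57 in macrophage-gated cells and 2.20 and 1.79 in Itgax-gated cells. H2-Oa, a subunit of the DM inhibitor DO, had 87.1% and 79.8% of its NK cell UMIs in chain-free barcodes. It had 13.5 and 8.91 UMIs per 100 chain UMIs in NK cells, 0 and 0.137 in macrophage-gated cells, and 0.903 and 0.661 in Itgax-gated cells. H2-Oa itself stood at 7.24 and 8.54 CPM in NK cells, below the level called measured. Its partner H2-Ob, named after its values were seen, had 88.5% and 72.9% in chain-free barcodes at 2.59 and 1.78 CPM overall. The T gate of the knockout had 15 H2-DMa UMIs beside 34 chain UMIs, or 44.1 per 100 (24.7 to 72.8). The ratio of H2-DMa and H2-Oa to the chain genes thus differed between NK cells and the macrophage and Itgax gates by more than counting error.

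**Figure D3:**
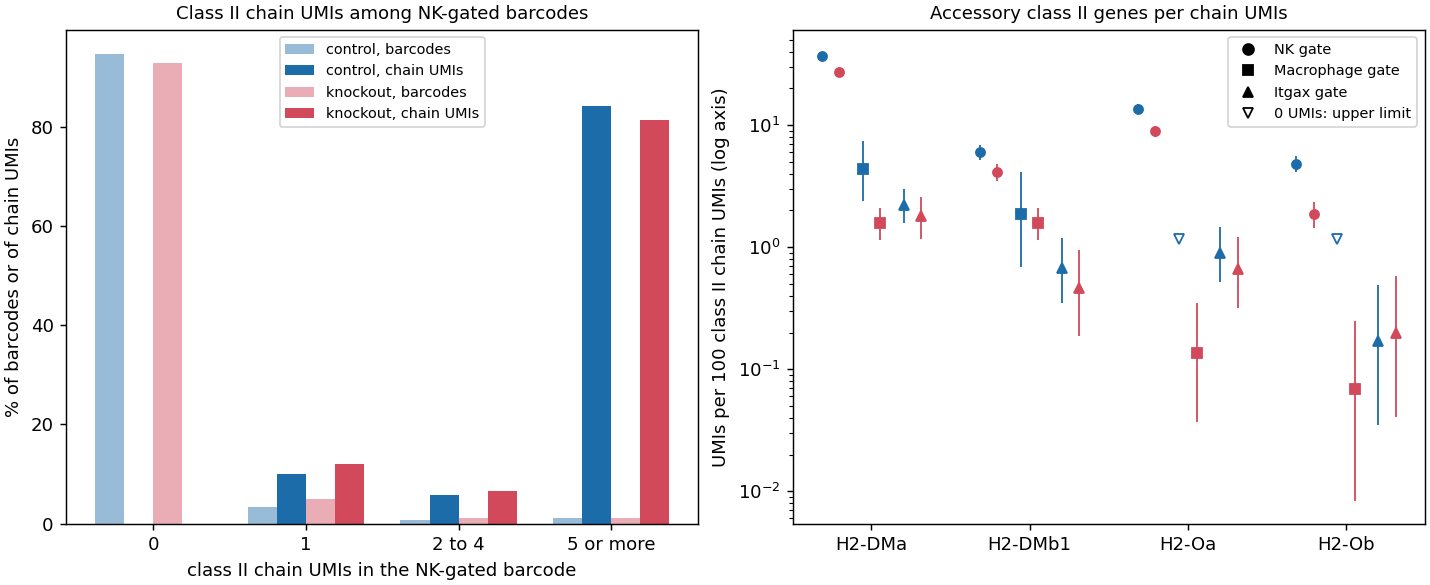
Left: percent (y axis) of NK-gated barcodes (pale bars) and of class II chain UMIs (solid bars) by the number of chain UMIs in the barcode, for the control (blue) and knockout (red) libraries. Right: UMIs of H2-DMa, H2-DMb1, H2-Oa and H2-Ob per 100 chain UMIs (log y axis) in NK, macrophage and Itgax gates, same colours, with exact Poisson intervals as bars and open triangles at the upper limit of 0 UMIs. Barcodes with 5 or more chain UMIs are 1.12% and 1.24% of barcodes and hold 84.2% and 81.3% of chain UMIs, and of the 3 gates plotted H2-DMa and H2-Oa stand highest per chain UMI in NK cells.

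Class II stood far above NK cells in the macrophage and Itgax gates. In the Itgax gate the class II sum was 29845 CPM in the control and 36509 CPM in the knockout, which over NK cells of the same library is 8.42 and 8.05 on the log2 scale. In the macrophage gate it was 7481 and 13260 CPM, or 6.42 and 6.59 over NK cells. Cd74 alone stood at 10698 and 14438 CPM in Itgax-gated cells and at 3278 and 7057 CPM in macrophage-gated cells. The accessory genes H2-DMb1 and H2-DMb2, which encode alternative DM beta chains, were at 193 and 161 CPM and at 161 and 277 CPM in the Itgax gate. In NK cells they were at 3.20 and 3.97 CPM and at 0.253 and 0.508 CPM, and 12.7% of H2-DMb1 end stretches are shared with H2-DMb2. H2-Oa was at 257 and 231 CPM in the Itgax gate.

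Classical class I ran the other way. The summed H2-K1 and H2-D1 level in Itgax-gated cells was 2152 CPM in the control and 2906 CPM in the knockout, log2 ratios over NK cells of -1.28 (interval -1.54 to -1.04) and -0.88 (-1.14 to -0.63). In macrophage-gated cells it was 3322 and 3855 CPM, at -0.65 and -0.47. In T-gated cells it was 3872 and 4176 CPM, at -0.43 and -0.35. B2m did not follow the heavy chains in macrophages: it stood at 2860 and 3413 CPM there, above NK cells by 0.41 (0.15 to 0.66) and 0.74 (0.64 to 0.84). CPM divides by all transcripts of a cell type, so these are shares of the RNA and not amounts per cell.

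The Qa-2 genes stood far lower in macrophage-gated cells than in NK cells. H2-Q7 in macrophage-gated cells stood at 88.0 CPM in the control and 70.1 CPM in the knockout, a log2 ratio over NK cells of -3.36 (-5.24 to -2.00) and -3.37 (-4.17 to -2.67). H2-Q6 in the same cells was seen 2 times in each library, at -3.00 (-6.05 to -1.15) and -5.22 (-8.27 to -3.37) over NK cells. In T-gated cells H2-Q7 stood at 644 and 587 CPM, at -0.49 and -0.30 over NK cells, while H2-Q6 was at -1.96 and -1.37. In Itgax-gated cells H2-Q7 was at -3.23 (control) and -1.39 (knockout), and H2-Q6 at -3.45 and -0.65. H2-T23 was at 198 and 215 CPM in macrophage-gated cells and at 172 and 357 CPM in T-gated cells.

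H2-M2 reached the naming level through very few cells. All 8 of its UMIs in the control Itgax gate came from 1 of 27 cells, 4 knockout UMIs from 2 of 12 cells, and the 2 UMIs of the control macrophage gate from 1 cell. In NK cells it stood at 0.0595 and 0.0763 CPM.

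**Figure D4:**
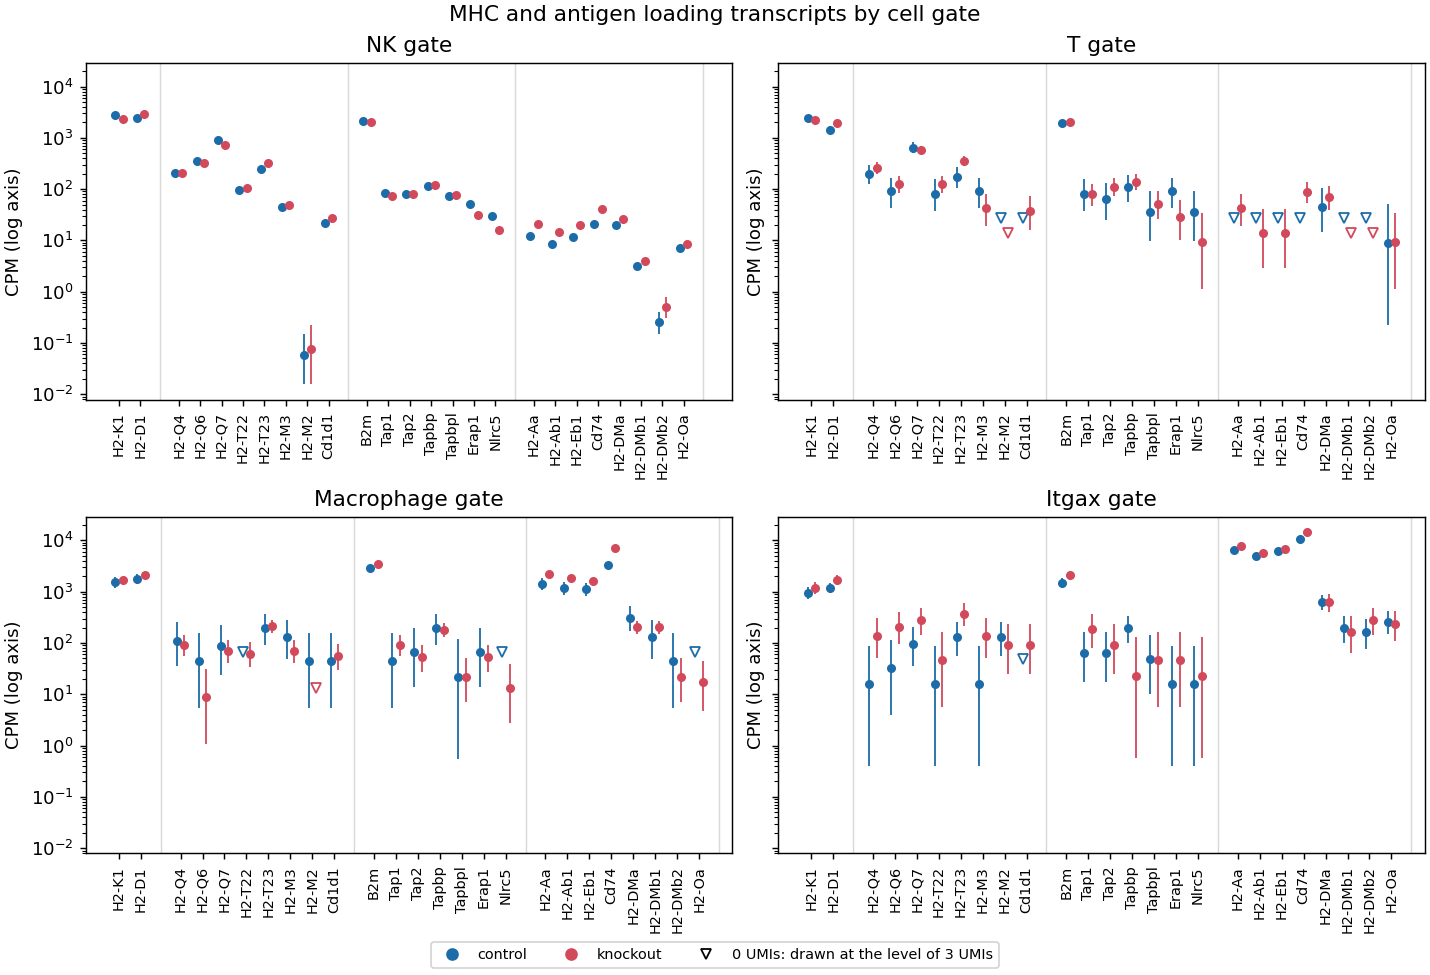
Level (y axis, CPM on a log axis) of the named MHC and loading members in the NK, T, macrophage and Itgax gates for the control (blue) and knockout (red) libraries, with exact Poisson intervals as bars and open triangles at the level of 3 UMIs where 0 were counted. The class II chain genes and Cd74 stand highest in the Itgax gate, where Cd74 is at 10698 and 14438 CPM, while H2-Q7 is at 903 and 723 CPM in NK cells and at 88.0 and 70.1 CPM in the macrophage gate.

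Knockout over control ratios were also taken outside NK cells, where Cre is not expected from Ncr1. The class II sum had a log2 ratio of 0.83 (0.66 to 0.99) in macrophage-gated cells and 0.29 (0.19 to 0.39) in Itgax-gated cells. In T-gated cells it was 2.25 (1.03 to 3.75), from 6 control and 55 knockout UMIs. There 13 of the 19 Cd74 UMIs came from 1 knockout cell, and with at least 2 Cd3e UMIs required the ratio was 0.58. In the Itgax gate 1 of 27 control cells held 21.8% of the Cd74 UMIs, and 1 of 12 knockout cells held 26.2%. Lyz2 stood at 3437 CPM in the control Itgax gate and at 115 CPM in the knockout one. The part of this unlike make-up in the class II ratio was not tested. H2-D1 had 0.46 (0.20 to 0.74) in T-gated cells, 0.28 (-0.06 to 0.64) in macrophage-gated cells and 0.50 (0.02 to 0.99) in Itgax-gated cells. H2-T23 had 1.05 (0.31 to 1.86) in T-gated cells, from 172 to 357 CPM, 0.12 (-0.92 to 1.33) in macrophage-gated cells and 1.52 (0.21 to 2.95) in Itgax-gated cells. H2-D1, H2-T23 and the class II sum thus had the sign of NK cells in all 3 other gates, with intervals that reached 0 for the first pair in macrophage-gated cells. Other members did not keep their sign: H2-K1 had 0.13 (-0.24 to 0.52) in macrophage-gated and 0.34 (-0.23 to 0.90) in Itgax-gated cells, and H2-Q7 had 1.52 (-0.00366 to 3.22) in Itgax-gated cells. Differences between the gates were not tested.

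The classical class I genes differed little between less and more mature NK cells. NK cells of each library were ranked by a score of 9 mature minus 9 less mature markers at 2000 UMIs and split into tertiles of 3467 control cells and 3029, 3029 and 3028 knockout cells. The tertiles are ranges of the score and not cell types: 25.1% and 24.9% of cells lay within 0.1 of a boundary. From the least to the most mature tertile, H2-K1 went from 2894 to 2743 CPM in the control and from 2443 to 2323 CPM in the knockout, log2 ratios of -0.08 and -0.07. H2-D1 went from 2453 to 2411 and from 3044 to 2962 CPM. The H2-K1 share of the pair was 54.1%, 53.6% and 53.2% over the control tertiles and 44.5%, 44.7% and 44.0% over the knockout ones. Every control tertile thus stood above every knockout tertile. Cells were ranked within each library, so tertiles of the same name are not matched stages. From least to most mature tertile, the mature markers summed to 1976, 2610 and 3651 CPM in the control. In the knockout they summed to 1135, 1731 and 2867 CPM. The less mature markers summed to 2709, 1630 and 1071 CPM in the control and 3825, 2338 and 1447 CPM in the knockout.

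Over the least and most mature tertiles, 22 members reached a mean of 10 CPM in each library. In the control these held H2-Q10 in place of H2-Ab1. Of the 22, 1 was higher and 0 were lower in the most mature control tertile, where 2.63% and 2.76% of measured genes were. In the knockout 0 were higher and 5 lower, where 4.06% and 4.58% were. The summed non-classical genes had -0.12 in both libraries, and the loading genes -0.10 and -0.06. Tapbpl stood out among the loading genes. It went from 82.9 to 66.7 CPM in the control, -0.31 (-0.41 to -0.21), and from 93.0 to 65.8 CPM in the knockout, -0.50 (-0.63 to -0.37). H2-Oa had -0.54 (-0.87 to -0.22) and -1.13 (-1.56 to -0.71).

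The class II chain genes differed in direction between the libraries along this score. H2-Aa went from 9.73 to 12.8 CPM in the control, 0.39 (0.13 to 0.65), and from 25.2 to 17.3 CPM in the knockout, -0.55 (-0.80 to -0.30). Cd74 had 0.10 (-0.09 to 0.29) and -0.72 (-0.90 to -0.53). Summed class II had 0.08 and -0.61. The 16 markers of other lineages stood at 12.5, 12.9 and 10.8 CPM over the control tertiles and at 31.4, 49.9 and 41.0 CPM over the knockout ones. With Itgam alone against Cd27 alone in place of the score, the class II sum had log2 ratios of -0.20 (control) and 0.15 (knockout). Both signs are the reverse of the scored ones, so no class II order along maturation is read from these data.

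NK cells with interferon-induced transcripts held more transcripts of class I and its loading genes. Cells with at least 3 UMIs over Ifit1, Ifit3, Rsad2, Usp18, Oasl1 and Cmpk2 numbered 112 in the control and 70 in the knockout, against 9318 and 8828 cells with 0 such UMIs. They were deeper, with medians of 7135 against 5746 UMIs in the control and 4240.5 against 3820 in the knockout, and the part of depth was not tested. Measured here means a mean of 10 CPM over the 2 groups of cells compared. In the control 11 of 20 measured members were higher, where 13.6% of measured genes were, and 3 were lower, where 17.7% were. In the knockout 16 of 22 were higher, where 20.2% were, and 4 lower, where 30.7% were. H2-Q10 was among those called higher in both libraries, from 14 control and 5 knockout UMIs in the interferon cells, with intervals that held 0. In the knockout it passed the minimum only through those cells, at 14.0 against 6.15 CPM. The intervals also held 0 for H2-M3 in the control, at 0.33 (-0.12 to 0.74), called higher. The same held for Erap1, at 0.35 (-0.52 to 1.11), and Cd74, at 0.35 (-0.46 to 1.06), in the knockout. Among the lower calls, 2 passed the minimum only through the cells with 0 interferon UMIs. These were Cd74 in the control (18.8 against 4.56 CPM) and H2-Aa in the knockout (18.6 against 8.41 CPM).

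Tapbp, Nlrc5 and Tap1 of the loading genes stood highest here. Tapbp went from 115 to 259 CPM in the control and from 118 to 292 CPM in the knockout, log2 ratios of 1.17 (0.98 to 1.37) and 1.31 (1.01 to 1.59). Nlrc5 went from 28.9 to 67.3 CPM and from 15.4 to 61.7 CPM, 1.22 (0.82 to 1.59) and 2.0 (1.32 to 2.61). Tap1 had 0.96 and 1.42. The paired transporter gene Tap2 had 0.61 and 0.50.

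Of the heavy chain genes, H2-T23, H2-T22 and H2-Q4 had larger ratios than the classical pair in both libraries. H2-T23 had 0.80 (0.65 to 0.95) and 1.11 (0.92 to 1.29), H2-T22 0.75 and 1.15, and H2-Q4 0.59 and 0.93. H2-K1 had 0.29 (0.24 to 0.34) and 0.46 (0.38 to 0.54), H2-D1 0.23 (0.17 to 0.29) and 0.29 (0.21 to 0.37), and B2m 0.32 and 0.53. H2-Q7 had 0.29 and 0.65, and Cd1d1 had -0.73 (-1.69 to 0.08) and -0.96 (-2.59 to 0.27). Summed class II genes did not share this direction, with -0.76 (-1.23 to -0.32) in the control and -0.32 (-0.84 to 0.15) in the knockout, although Cd74 alone had 0.35 (-0.46 to 1.06) there.

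**Figure D5:**
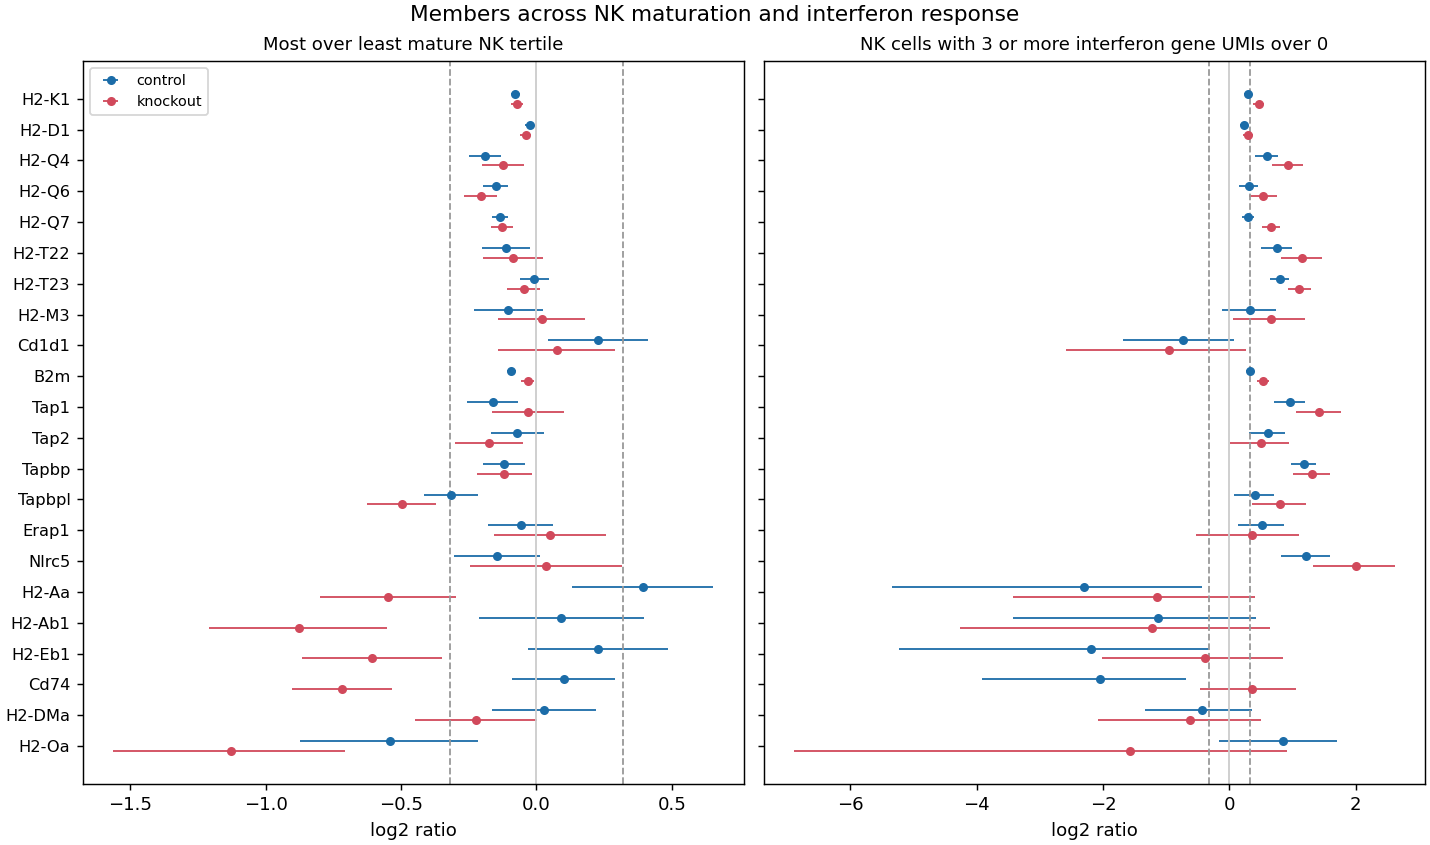
Log2 ratios (x axes) of measured members and H2-Oa within NK cells, for the control (blue) and knockout (red) libraries, with counting intervals as bars and dashed lines at 0.32 in either direction. Left, most over least mature tertile: class I genes other than Tapbpl lie within the dashed lines and the class II chain genes of the knockout lie below, with Cd74 at -0.72. Right, cells with 3 or more interferon gene UMIs over cells with 0: Nlrc5 is at 1.22 and 2.0 and H2-D1 at 0.23 and 0.29.

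Classical class I was present in nearly every NK cell. At 2000 UMIs per cell, 5 of 10401 control and 4 of 9086 knockout NK cells had 0 UMIs of H2-K1 and H2-D1. The pair had a median of 10 UMIs in control and 11 in knockout cells, with the 5th and 95th percentiles at 5 and 18 in both. The variance of H2-K1 counts over cells was 1.34 and 1.42 times their mean, close to the 1.30 and 1.32 of genes with a mean within 2-fold of it. For H2-D1 it was 1.21 and 1.34 times, against 1.31 and 1.34. For the summed H2-K1 and H2-D1 counts it was 1.48 and 1.64 times. Of the Qa-2 pair H2-Q6 and H2-Q7, which has a lower mean, 11.1% of control and 17.1% of knockout cells had 0 UMIs, and the variance was 1.30 and 1.47 times the mean. For H2-Q7 alone it was 1.24 and 1.39 times, against 1.13 and 1.10 for genes of similar mean.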

How the data were processed

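Droplet libraries of transcript 3′ ends were made by the study from NK cells of 2 pooled mice per genotype. The deposited values are raw UMI counts per gene and barcode, not normalized, and the lowest total of a barcode was 500 UMIs. STAR, Cell Ranger 3.0.0, Seurat and GRCm39 are named in the submitters' processing notes without their roles. The reference annotation used here, for exon lengths and chromosomes, is GENCODE on GRCm38, in which 31011 of the 31053 gene IDs were found. No coordinate of the deposited files was used.

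Barcodes needed 500 detected genes and a mitochondrial share of 10% or less, and 857 control and 592 knockout barcodes failed this. The NK gate needed 2 UMIs over Ncr1, Klrb1c, Klre1, Klra8, Klra4 and Styk1 and 0 of Cd3e and C1qa. The other gates needed at most 1 of these UMIs and at least 1 of Cd3e (0 of C1qa and Itgax), C1qa (0 of Cd3e) or Itgax (0 of C1qa and Cd3e). No doublet caller was run. Median mitochondrial shares were 3.47% and 3.90%.

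Counts were summed per gate and divided by the gate's total to give CPM. Exact 95% intervals are Poisson for levels and Clopper-Pearson for shares. Those of ratios come from the binomial split of both counts given their sum. A count of 0 is read against 3 counts over the group. Genes with a mean of at least 10 CPM over the 2 groups compared were called measured, so the set differs between comparisons. Named genes were members measured in NK cells or at 100 CPM in another gate, and up to 6 other pathway genes by size of ratio. One gene that this rule names is not reported here. Of 31 genes on that other list, 30 were in the files. Members and lists were chosen with earlier results of these data known. Thinning drew a fixed number of UMIs per cell without replacement and left out 157 control and 196 knockout NK cells at 2000 UMIs. End sequences shared between genes were searched as 90-base stretches of the last 500 transcript bases. The ratios and intervals were tested on simulated counts. The tools were pandas 2.3.3 and numpy 2.4.6 for tables, scipy 1.17.1 for intervals, matplotlib 3.10.9 for plots, all under Python 3.11.15.

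Alternatives changed the scaling, the cell filter, the gates, the minimum level, the size of a call, the length adjustment, the maturity reading and the thinning depth.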

Additional observations from a re-analysis of the deposited data

Results flagged for a closer look

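For B2m, H2-Q4 and H2-Q6 the knockout over control ratio had opposite directions in NK cells and in Itgax-gated cells, with both counting intervals clear of 0. How many of all genes do so was not counted, so this is not read as particular to the members. B2m had a log2 ratio of -0.0784 in NK cells and 0.475 in Itgax-gated cells, where it was counted 93 and 90 times. H2-Q4 had -0.0412 against 3.11, from 1 control and 6 knockout UMIs in the Itgax gate (interval 0.06 to 8.63). H2-Q6 had -0.108 against 2.69, from 2 and 9 UMIs (0.42 to 5.94). The control Itgax gate held 4385 CPM of neutrophil and monocyte markers and the knockout one 161 CPM, and the part of this in the ratios was not tested.

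H2-Aa had a log2 ratio of 0.393 from the least to the most mature tertile in control NK cells and -0.547 in knockout NK cells. None of these differences between groups was tested, since each group is 1 library.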

How the results depend on the processing

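No paired analysis was possible because each genotype is 1 library. Log2 ratios are given throughout. In NK cells the summed class I ratios moved with scaling: under median-of-ratios scaling, a shift of -0.06, they were 0.10 (classical), -0.0338 (non-classical) and -0.0242 (loading), and class II was 0.72. With totals lacking mitochondrial and ribosomal protein genes they were 0.0640, -0.0651 and -0.0555. H2-Q4 turned to 0.0235 under the first of these. H2-D1 was then called higher, at 0.36 and 0.33, and H2-Q7 no longer lower, at -0.26 and -0.29, so 9 members were higher under each. Class II was 0.55 with 1000 genes and 5% mitochondrial UMIs, and 0.24 in the stricter NK gate, where Tap1 was -0.33, 2 members were higher and the members' median was -0.0117. A minimum of 1 CPM gave 6 members lower. A minimum of 50 CPM gave 1 higher, 1 lower and a median of -0.0190. Length adjustment gave a median of -0.00807 and turned H2-M3 to -0.0894. In an alternative chosen after seeing the data, NK cells with 0 UMIs of 16 other lineage markers, 3 members were higher and class II was 0.63. The share of all measured genes called is not given for these alternatives, and a change of scaling moves every gene by the same amount. The counts of members called under them are therefore not read as results about the members. Nlrc5 and Erap1 kept their direction under every alternative run, from -0.95 to -0.42.

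In T-gated cells over NK cells, class II in the knockout was -0.68 with 2 Cd3e UMIs, -0.13 with any NK UMIs and 1.41 with 0 NK UMIs. Classical class I was -0.28 (control) and -0.13 (knockout) with any NK UMIs, and -0.56 with 0 (knockout). Knockout over control, class II in T-gated cells was 0.58 with 2 Cd3e UMIs. In macrophage-gated cells with any NK UMIs, class II was 3.74 and 4.86 and classical class I -0.0916 and -0.22. With 2 C1qa UMIs, classical class I was -0.35 in the control and -0.10 for knockout over control. For the Itgax gate, 2 UMIs gave class II 8.08 and 7.80, classical class I -1.84 and -1.57, and 2.73 for the non-classical sum, knockout over control. With 0 NK UMIs the knockout had 7.90 and -1.15. With any NK UMIs that gate took 6164 and 2642 barcodes and gave class II 0.54 and 1.21 and classical class I -0.00640 and -0.0133.

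From least to most mature NK cells, levels from thinned cells gave classical class I -0.0691 (control) and -0.0342 (knockout), loading -0.0264 (knockout) and class II -0.14 (control). Itgam alone against Cd27 alone gave classical class I -0.0213 and -0.0126, non-classical -0.0245 and -0.0656, loading -0.0705 (control), and class II -0.20 and 0.15. Median-of-ratios scaling gave classical class I -0.0763 and -0.0698, non-classical -0.15 (control) and loading -0.12 (control).

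Median depth was 5816.5 UMIs in control and 3832 in knockout cells, and T, macrophage and Itgax gates of 12 to 129 cells limit what can be seen there. The cause of these changes was not tested.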

Other observations

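Members outside the naming rule were looked at after their values were seen. H2-Q10, which encodes a secreted class I chain, stood at 12.8 CPM in control and 6.28 CPM in knockout NK cells, a log2 ratio of -1.03 (-1.24 to -0.82). H2-T24 stood at 5.50 and 2.44 CPM, a log2 ratio of -1.17 (-1.51 to -0.85). Both were below the mean of 10 CPM over both libraries required of a measured gene, though H2-Q10 reached that minimum within some comparisons. Ciita, the class II transactivator, had 20 UMIs in control and 14 in knockout NK cells. In Itgax-gated cells it had 4 and 6.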
